A study of Rattus norvegicus with 2 samples.

Results

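Genes named Zfp with a number encode zinc finger proteins, most of them proteins of the nucleus that read DNA. In this RIP-seq experiment, which sequenced the RNA that stayed with a pulled-down protein, 269 genes of the deposited table carried such a name (Zfp, a number and at most 1 letter), and 206 of them had at least 10 counts summed over both libraries, out of 11468 genes with that many. The name and the summed count fixed which genes are members, and a gene can pass that minimum through 1 library alone. The family itself was chosen with earlier results of these data known, as one whose ratios spread both ways. That spread is therefore described here and is not a separate finding. The experiment asked which mRNAs bind P180 (gene Rrbp1), a ribosome-binding receptor of the endoplasmic reticulum (ER) that the study places in axons. Primary cortical neurons of Rattus norvegicus expressed P180 fused to GFP and a biotin acceptor tag (P180-GFPbio), or the tagged GFP alone (GFPbio) as the control. Streptavidin beads collected the tagged protein from the cell lysate, and the bound RNA was read from its 3' ends after adapted CEL-Seq2 library preparation.

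Both groups were untreated cultures in supplemented neurobasal medium, and no other agent or allele is named for either. The promoter, the way the construct entered the cortical neurons, the source of their biotin ligase and their age were not found in the sources used here. The series' design text speaks of 2 biological replicates, but the count columns of 1 library per condition could be tied to a sample given here, and 2 further columns were not used. Every difference below therefore compares 1 P180 pull-down with 1 GFP pull-down and has no replicate check, no standard deviation and no p-value.

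The typical Zfp protein carries a row of Cys2His2 fingers, short loops folded around a zinc ion, each of which contacts a few bases of DNA. Many mammalian members also carry a KRAB domain, which recruits the co-repressor Trim28 (KAP1) and, through it, enzymes that methylate histones and DNA. Such KRAB genes arose by repeated duplication and lie in clusters, and many of them silence transposable elements. Other members lack KRAB and act as activators, as subunits of chromatin complexes, or in the cytoplasm on RNA and ribosomes. The symbol alone does not fix the class of finger. Most of these proteins have no signal peptide or membrane segment, so their mRNAs are usually translated on free ribosomes.

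Depth came to 6298343 counts in the P180 pull-down, spread over 13407 genes, and to 8428358 in the GFP pull-down, spread over 9345. Rrbp1 had 2541 counts in the P180 pull-down and 1334 in the GFP pull-down, 2.66-fold higher in the P180 pull-down after scaling (95% exact counting interval 2.49 to 2.85). The row EGFP_avitag, for the tag of both constructs, went the other way, with 63981 and 190058 counts, 2.13-fold lower in the P180 pull-down. Among the fixed cell type markers, all 10 neuronal markers were detected in both libraries, and their summed counts were 38887 in the P180 pull-down and 55255 in the GFP pull-down, a ratio of scaled sums of 0.98. The 10 astrocyte markers summed to 61581 and 19876 counts, a ratio of 4.33, with 8 of 10 at least 2-fold higher and 2 at 0 in the GFP pull-down. Of 7 measured markers of the oligodendrocyte lineage 4 were higher and 1 was lower, and of 8 markers of dividing cells 6 were higher. The 3 measured microglial markers, with 15, 23 and 42 counts (80 in all) in the P180 pull-down, were at 0 in the GFP pull-down. Over all genes with at least 10 counts, 40.6% were at least 2-fold higher and 20.4% were at 0 in the GFP pull-down. With 10 to 29 summed counts these shares were 90.5% and 80.9%, with 30 to 99 counts 69.4% and 47.2%, and from 100 counts 25.0% and 3.55%. Mitochondrially encoded genes, 13 in all, took 7.31% of the P180 and 16.6% of the GFP counts. The part of these transcripts and of other cell types in the results for the Zfp genes was not tested, and in RNA pulled down from a whole culture fewer cells of a type and less RNA per cell cannot be told apart.

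Values below are raw counts, given for the P180 pull-down first and the GFP pull-down second, and log2 ratios of scaled counts, P180 over GFP. Scaled counts are counts divided by a size factor of 0.846 for the P180 pull-down and 1.18 for the GFP pull-down. For folds a count of 0 was replaced by 3, the floor. A fold against that floor is written with "at least" and is a bound set by the floor alone, without counting error. Its counting limit is a smaller fold, so smaller true folds are possible. Medians over genes use ratios with 1 scaled count added to both libraries. Intervals are exact 95% counting intervals, which cover counting error only, and "higher" and "lower" stand for a ratio of at least 2-fold in the P180 pull-down relative to the GFP pull-down.

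Over all counts the Zfp genes were spread widely to both sides, as were all genes. The width between the quartiles of the log2 ratio was 4.47 for the members and 3.81 for all genes. With at least 100 summed counts it was 1.59 and 1.94, so the members were there the narrower set. Of the 206, 72 were higher in the P180 pull-down (35.0%, 95% exact binomial interval 28.5 to 41.9), 65 were lower (31.6%, 25.3 to 38.4) and 69 lay within 2-fold. Across all 11468 genes, 40.6% were higher and 19.9% were lower. The members' median log2 ratio was -0.23, with quartiles at -1.32 and 3.16, and that of all genes was 0.45, with quartiles at -0.70 and 3.11. The share of lower members was above that of all genes, and the share of higher members was below it, as it was at each count level given below. The binomial intervals treat genes of 1 pair of libraries as independent draws, and a difference from all genes was not tested. Together they took 21515 counts, or 0.342%, of the P180 pull-down and 41757 counts, or 0.495%, of the GFP pull-down, so that their scaled sum in the P180 pull-down was 0.72 of that in the GFP pull-down.

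**Figure D1:**
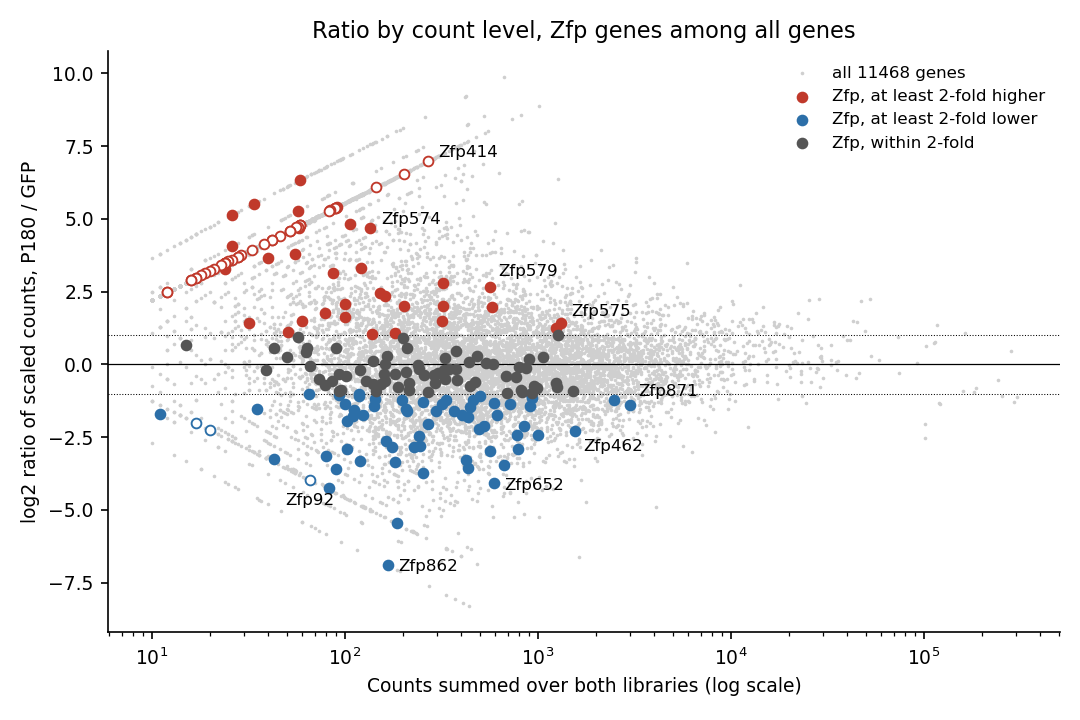
The log2 ratio of scaled counts (P180 over GFP, vertical axis) of each of the 206 Zfp genes against its summed count (horizontal axis, log scale). Red points are Zfp genes at least 2-fold higher (72 genes), blue at least 2-fold lower (65) and dark grey within 2-fold (69). Small light grey points behind them are all 11468 genes. Dotted lines mark 2-fold, and open symbols are Zfp genes at 0 in 1 library, placed at the bound. The red points lie mostly at low counts.

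Which side a Zfp gene fell on went with how many counts it had. Among the 27 members with 10 to 29 summed counts, 23 were higher and 3 were lower, where all genes at that level were higher in 90.5% and lower in 5.69%. Among the 51 members with 30 to 99 counts, 29 were higher and 8 were lower, against 69.4% and 13.7% of all genes. At both levels the members' shares of higher genes, 85.2% and 56.9%, were below those of all genes, and few genes of any kind were lower. Pooled over the 78 members under 100 counts, 52 were higher and 11 were lower, beside 78.4% and 10.3% of all genes.

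From 100 counts the order turned. Among the 63 members with 100 to under 300 counts, 13 were higher (20.6%) and 26 were lower (41.3%), with a median log2 ratio of -0.65, whereas all genes at that level were higher in 37.6% and lower in 24.9%, with a median of 0.31. Among the 65 members with at least 300 counts, 7 were higher (10.8%) and 28 were lower (43.1%), with a median of -0.87, against 19.6% and 23.4% of all genes and a median of -0.10. Pooled over all 128 members with at least 100 counts, 20 were higher and 54 were lower, beside 25.0% and 23.9% of all genes. The well counted Zfp genes thus leaned to the GFP pull-down, and all genes with as many counts were about evenly divided.

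The counting intervals gave the same picture without a 2-fold limit. Over all 206 members, 79 had an interval wholly above 1 and 92 wholly below 1, where all genes did so in 53.2% and 33.7%. Of the 65 members with at least 300 counts, 43 had an interval wholly below 1 (66.2%) and 11 wholly above 1 (16.9%), where all genes at that level did so in 46.8% and 40.8%. Of the 27 members with 10 to 29 counts, 2 lay below 1 and 23 above, where all genes did so in 4.49% and 88.7%. At 30 to 99 counts 30 of 51 members lay above 1 and 10 below (71.2% and 15.2% of all genes), and at 100 to under 300 counts 15 of 63 lay above and 37 below (47.4% and 34.8%).

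Zeros in the GFP pull-down were most frequent at the lowest counts. Of the 206 members, 41 had no count in the GFP pull-down (19.9%, 14.7 to 26.0; 20.4% of all genes), and 3 had none in the P180 pull-down. Of the 41, 20 were among the 27 members with 10 to 29 counts and 18 among the 51 with 30 to 99 counts, and 3 had at least 100. Among the 162 members with counts in both libraries, 31 were higher and 62 were lower, with a median log2 ratio of -0.64, where the 9005 genes of all kinds with counts in both were higher in 25.6% and lower in 24.0%, with a median of 0.00. Thus 41 of the 72 higher members were at 0 in the GFP pull-down, and 3 of the 65 lower members were at 0 in the P180 pull-down. The count minimum and the floor fixed these calls in advance, so they carry no separate information on direction.

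The Tmem genes, a family named in the same way whose products are mostly membrane proteins inserted at the ER, served as a contrast. Of 154 measured Tmem genes 79 were higher and 22 were lower, beside 40.6% and 19.9% of all genes, with a median log2 ratio of 1.07. With 10 to 29 counts 14 of 14 were higher, and with 30 to 99 counts 17 of 19 (89.5%), against 56.9% of the Zfp genes at the latter level. Of all genes 90.5% and 69.4% were higher at these levels. With 100 to under 300 counts 24 of 39 were higher and 5 were lower, beside 37.6% and 24.9% of all genes. With at least 300 counts 24 of 82 were higher (29.3%) and 16 were lower (19.5%), beside 19.6% and 23.4% of all genes, with a median of 0.25. The share of higher genes was thus larger for the Tmem than for the Zfp genes at each of the 4 levels. At 10 to 29 counts, however, 13 of the 14 Tmem genes were at 0 in the GFP pull-down. The medians there went the other way, 4.08 for the Tmem and 4.48 for the Zfp genes. From 300 counts the medians of the families lay on opposite sides of the median of all genes. No test of this difference was made, since genes of 2 libraries are not replicates.

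**Figure D2:**
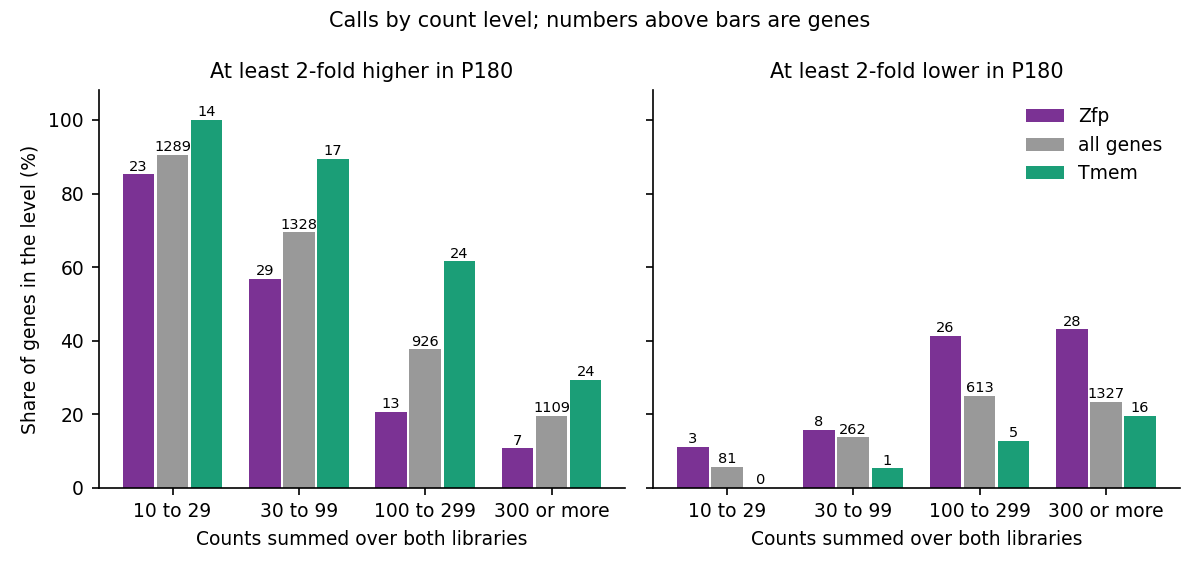
Percent of genes at least 2-fold higher and at least 2-fold lower in the P180 pull-down (vertical axis) at 4 levels of summed count (horizontal axis) for the Zfp genes, all genes and the Tmem genes. For the Zfp genes the share higher falls from 85.2% to 10.8% and the share lower climbs from 11.1% to 43.1%.

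The 12 members with the highest mean scaled count lay on both sides. Zfp871 (ENSRNOG00000004947), the most counted, had 651 counts in the P180 pull-down and 2367 in the GFP pull-down, a log2 ratio of -1.38 (-1.51 to -1.25), or 2.60-fold lower. Zfp148 (ZBP-89), a factor that binds GC-rich promoters, had 582 and 1900 counts, a log2 ratio of -1.22 (-1.36 to -1.09). Zfp462, a chromatin-associated protein of embryonic and neural development with many fingers, had 201 and 1356 counts and was 4.83-fold lower, with a log2 ratio of -2.27 (-2.49 to -2.06). These 3 were the lower members among the 12.

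On the other side stood Zfp575, with 875 and 451 counts and a log2 ratio of 1.44 (1.27 to 1.61), and Zfp622 (ENSRNOG00000010589), a cytoplasmic maturation factor of the large ribosomal subunit, with 777 and 461 counts and a log2 ratio of 1.24 (1.07 to 1.40). Zfp319 fell just short of the limit with 751 and 525 counts and a log2 ratio of 1.00 (0.84 to 1.16). The remaining 6 lay within 2-fold. Of these, Zfp385a had 490 and 580 counts, a log2 ratio of 0.24 (0.06 to 0.42). Zfp518b, Zfp318, Zfp60, Zfp91 and Zfp638 had log2 ratios of -0.93, -0.76, -0.64, -0.83 and -0.73. All 12 intervals excluded a ratio of 1, 4 above it and 8 below.

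Members detected in both libraries were ranked by the limits of their intervals, at a mean of 50 or more scaled counts. Highest by the lower limit were Zfp574, Zfp40, Zfp84, Zfp623, Zfp579, Zfp710, Zfp668 and Zfp580, 8 in all. The ratios of the first pair rest on single-digit counts in the GFP pull-down. Zfp574 had 129 counts in the P180 pull-down and 7 in the GFP pull-down, a log2 ratio of 4.69 (3.60 to 6.03). Zfp40 had 101 and 5, a log2 ratio of 4.82 (3.55 to 6.47).

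Better counted were Zfp623, Zfp579 and Zfp580. Zfp623 had 271 and 54 counts and a log2 ratio of 2.81 (2.38 to 3.26). Zfp579 had 462 and 101 counts and a log2 ratio of 2.68 (2.36 to 3.0). Zfp580, a small protein studied in vascular smooth muscle and endothelial cells, had 428 and 154 counts and a log2 ratio of 1.96 (1.69 to 2.23). These 3 each had over 50 counts in the GFP pull-down, so their ratios do not rest on a near absence there. Zfp84, with 106 and 15 counts, Zfp710, with 122 and 31, and Zfp668, with 127 and 35, had log2 ratios of 3.30, 2.46 and 2.34.

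The 8 members with the lowest upper limit were Zfp862, Zfp81, Zfp652, Zfp786, Zfp169, Zfp111, Zfp236 and Zfp383. Zfp862 (ENSRNOG00000066193) had 1 count in the P180 pull-down and 166 in the GFP pull-down, a log2 ratio of -6.89 (-12.20 to -4.39), and Zfp81 had 3 and 183, a log2 ratio of -5.45 (-7.74 to -3.88). Zfp652, a repressor that partners with the ETO family protein Cbfa2t3, had 24 and 571 counts and was 17.0-fold lower, with a log2 ratio of -4.09 (-4.74 to -3.50). Zfp786 had 41 and 629 counts, a log2 ratio of -3.46 (-3.95 to -3.0). All of these had over 150 counts in the GFP pull-down, the deeper of the libraries, and few in the other.

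For the last 4 of the 8 the pattern was alike. Zfp169 had 25 and 408 counts, Zfp111 13 and 243, Zfp236 29 and 398 and Zfp383 47 and 517, with log2 ratios of -3.55, -3.74, -3.30 and -2.98. Their upper limits ran from -2.96 to -2.54 on the log2 scale, so each was at least 2-fold lower over its whole counting interval.

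Of the members at 0 in the GFP pull-down, the 6 with the most counts in the P180 pull-down were Zfp414 (ENSRNOG00000008378, 271 counts), Zfp212 (202), Zfp106 (146), Zfp496 (91), Zfp672 (90) and Zfp329 (89). Against the floor Zfp414 was at least 126-fold higher (lower counting limit 102), Zfp212 at least 94.1-fold (75.8) and Zfp106 at least 68.0-fold (54.6). Zfp496, Zfp672 and Zfp329 were at least 42.4-fold, 41.9-fold and 41.4-fold higher. Zfp106 binds RNA and is needed in mice to maintain motor innervation, and Zfp496 is a SCAN and KRAB protein that in mice interacts with the histone methyltransferase Nsd1. The floor stands for 0.356 CPM in the GFP pull-down, so these genes were not detectable there at this depth, which does not show that they were absent.

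The reverse was rarer. Zfp92 had 0 counts in the P180 pull-down and 66 in the GFP pull-down, at least 15.7-fold lower against the floor. Zfp52 (0 and 20) and Zfp458 (0 and 17) were at least 4.77-fold and 4.06-fold lower.

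**Figure D3:**
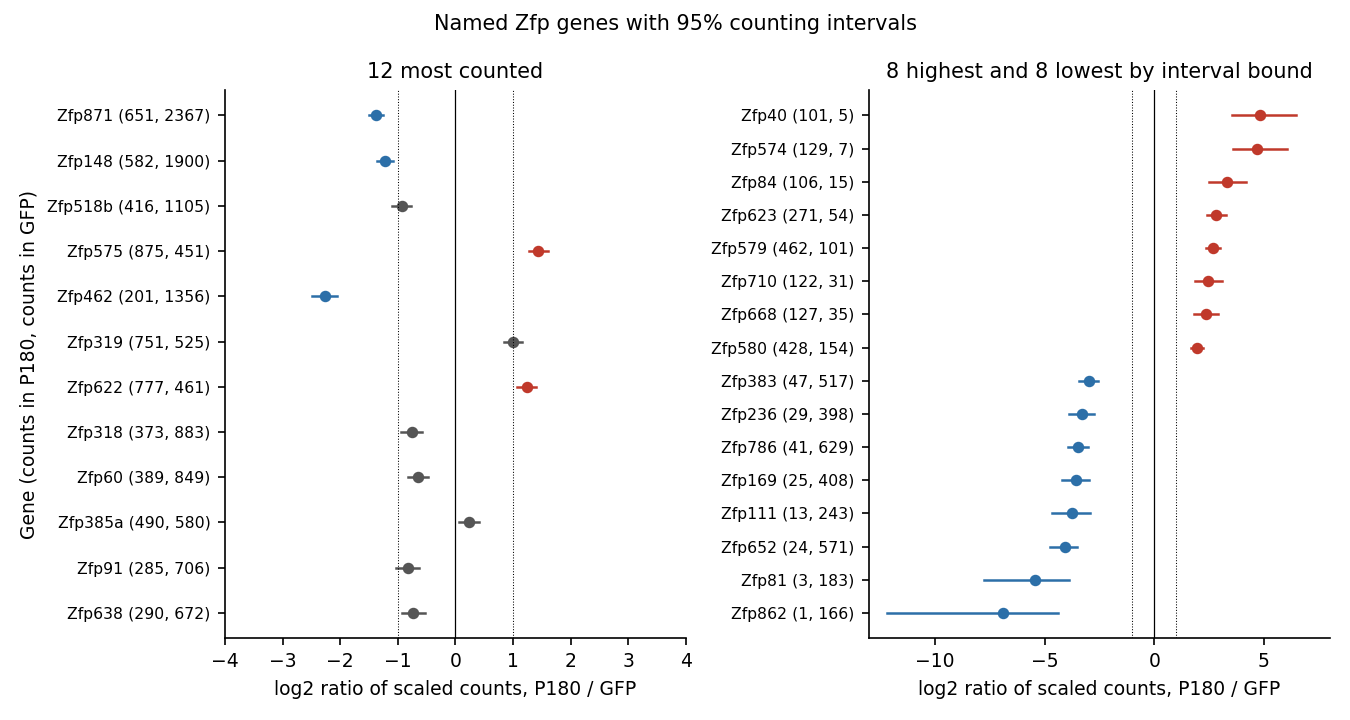
Log2 ratio of scaled counts (P180 over GFP, horizontal axis) of named Zfp genes, one per line, with exact 95% counting intervals as bars. Shown are the 12 most counted members (left) and the 8 highest and 8 lowest by interval limit (right). All of these genes had counts in both libraries. Zfp862 lies lowest at -6.89 and Zfp40 highest at 4.82.

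The 4 lists of roles from textbook knowledge, fixed with earlier results of these data known, held 52 of the 206 members, of which 12 were higher and 18 were lower, with a median log2 ratio of -0.65. The other 154 members, in no list, had 60 higher and 47 lower, with a median of -0.12.

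Among the members that act on RNA or ribosomes, 4 of 10 measured were higher and 2 were lower, with a median log2 ratio of 0.10. These shares equal those of all genes (40.6% and 19.9%) as nearly as 10 genes can. Most of the 10 had at least 100 counts, where all genes were higher in 25.0% and lower in 23.9%. The 3 members tied to ribosomes, a subgroup picked out after the values were seen, were all higher. They were Zfp622 (above), Zfp598 and Zfp593. Zfp598, the ubiquitin ligase that marks collided ribosomes, had 239 counts in the P180 pull-down and 84 in the GFP pull-down, a log2 ratio of 1.99 (1.63 to 2.37). Zfp593, whose yeast counterpart Bud20 helps export the precursor of the large subunit, had 57 and 0 counts, at least 26.5-fold higher (lower counting limit 20.9). The fourth was Zfp106, given above.

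Of the other RNA-related members, Zfp346 (JAZ), which binds double-stranded RNA, had 132 and 463 counts, a log2 ratio of -1.33 (-1.62 to -1.05), and Zfp385b, of the same finger type, had 7 and 28, a log2 ratio of -1.52 (-2.96 to -0.29). Its relative Zfp385a stood at 0.24. Zfp91, a ubiquitin ligase, Zfp326, of a complex that links transcription to splicing, and Zfp830, a nuclear protein, had log2 ratios of -0.83, -0.66 and -0.05. The list thus held both directions. Zfp36, the decay factor tristetraprolin, had 2 and 0 counts and was not measured.

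Among members known for neural development or brain disease, 2 of 12 were higher and 6 were lower, with a median of -0.97. Over all genes the shares were 40.6% and 19.9% and the median was 0.45. Most of the 12 had at least 100 counts, where all genes were higher in 25.0% and lower in 23.9%. At that level 15.6% of the Zfp genes were higher and 42.2% were lower, and a difference of the list from the family was not tested. The higher genes of the list were both at 0 in the GFP pull-down. Zfp335, a regulator of neural progenitors whose human counterpart is mutated in microcephaly, had 89 and 0 counts, at least 41.4-fold higher (lower counting limit 33.0), and Zfp536, a repressor of neuronal differentiation, had 59 and 0, at least 27.5-fold (21.7). Lower were Zfp462 (above), Zfp521, with 16 and 87 counts, Zfp407, with 22 and 102, Zfp703, with 57 and 197, Zfp804a, with 30 and 89, and Zfp365 (DBZ), with 17 and 48.

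Zfp521, a progenitor factor, had a log2 ratio of -1.96 (-2.83 to -1.18). Its paralogue Zfp423, a factor of cerebellar development, had 228 and 309 counts and stood at 0.04 (-0.21 to 0.30), so the intervals of the paralogues did not overlap. Zfp804a, a gene at a human schizophrenia risk locus, had a log2 ratio of -1.09 (-1.73 to -0.47). Zfp292 was at -0.11 (345 and 520 counts), Zfp142 at -0.53 (127 and 257) and Zfp24, needed for myelination in mice, at -0.97 (185 and 505).

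The imprinting regulators were both on the GFP side. Zfp57, a KRAB protein that keeps methylation at imprinted loci, had 224 and 603 counts, a log2 ratio of -0.95 (-1.17 to -0.72), and Zfp445, which shares that task, had 228 and 706, a log2 ratio of -1.15 (-1.37 to -0.93). The other measured members of their list were Zfp110 (46 and 44 counts, a log2 ratio of 0.55), Zfp354a (27 and 69, -0.87), Zfp354c (20 and 0, at least 9.31-fold higher) and Zfp708 (28 and 0, at least 13-fold higher). In all, 2 of 6 were higher and 1 was lower, too few to set against the shares of all genes.

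Among the 24 measured chromatin and transcription factors without KRAB, 4 were higher and 9 were lower, with a median of -0.69, beside 40.6% and 19.9% of all genes. Most of the 24 had at least 100 counts, where all genes were higher in 25.0% and lower in 23.9%. At that level 15.6% of the Zfp genes were higher and 42.2% were lower, and a difference of the list from the family was not tested. Zfp532, Zfp592 and Zfp687 form a complex with Zmynd8 in human cells, and their ratios fell in different classes. Zfp532 had 268 and 507 counts, a log2 ratio of -0.44 (-0.66 to -0.22). Zfp592 had 72 and 333, a log2 ratio of -1.73 (-2.12 to -1.36). Zfp687 had 84 and 0, at least 39.1-fold higher (lower counting limit 31.1).

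Among the related pairs of that list given next, only Zfp518b and Zfp518a lay on opposite sides. Zfp518b had 416 and 1105 counts, a log2 ratio of -0.93 (-1.09 to -0.76), and Zfp518a 25 and 0, at least 11.6-fold higher (8.79). Zfp148 and Zfp281, which bind like sequences, were closer, at -1.22 and -0.87 (231 and 590 counts for Zfp281). Zfp608 and Zfp609, the latter a cohesin-loader partner, were at -0.20 (46 and 74 counts) and -1.02 (242 and 687). For Zfp518a the counts were few, so its class rests on a zero.

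The other higher members of the list were Zfp512, with 110 and 72 counts and a log2 ratio of 1.09 (0.65 to 1.54), and Zfp219, with 58 counts and 1 count and a log2 ratio of 6.34 (3.81 to 11.67). The lower ones included Zfp653, with 120 and 729 counts and a log2 ratio of -2.12, Zfp516, with 23 and 224 and -2.80, Zfp639, with 57 and 239 and -1.59, Zfp131, with 191 and 722 and -1.44, and Zfp280d, with 47 and 152 and -1.21. Within 2-fold lay Zfp143, a transcription and chromatin loop factor (92 and 202, -0.65), Zfp384 (186 and 190, 0.45), Zfp410, an activator of Chd4 (77 and 88, 0.29), Zfp451, a SUMO ligase (244 and 444, -0.38), Zfp644 (135 and 211, -0.16) and Zfp827 (33 and 24, 0.94).

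**Figure D4:**
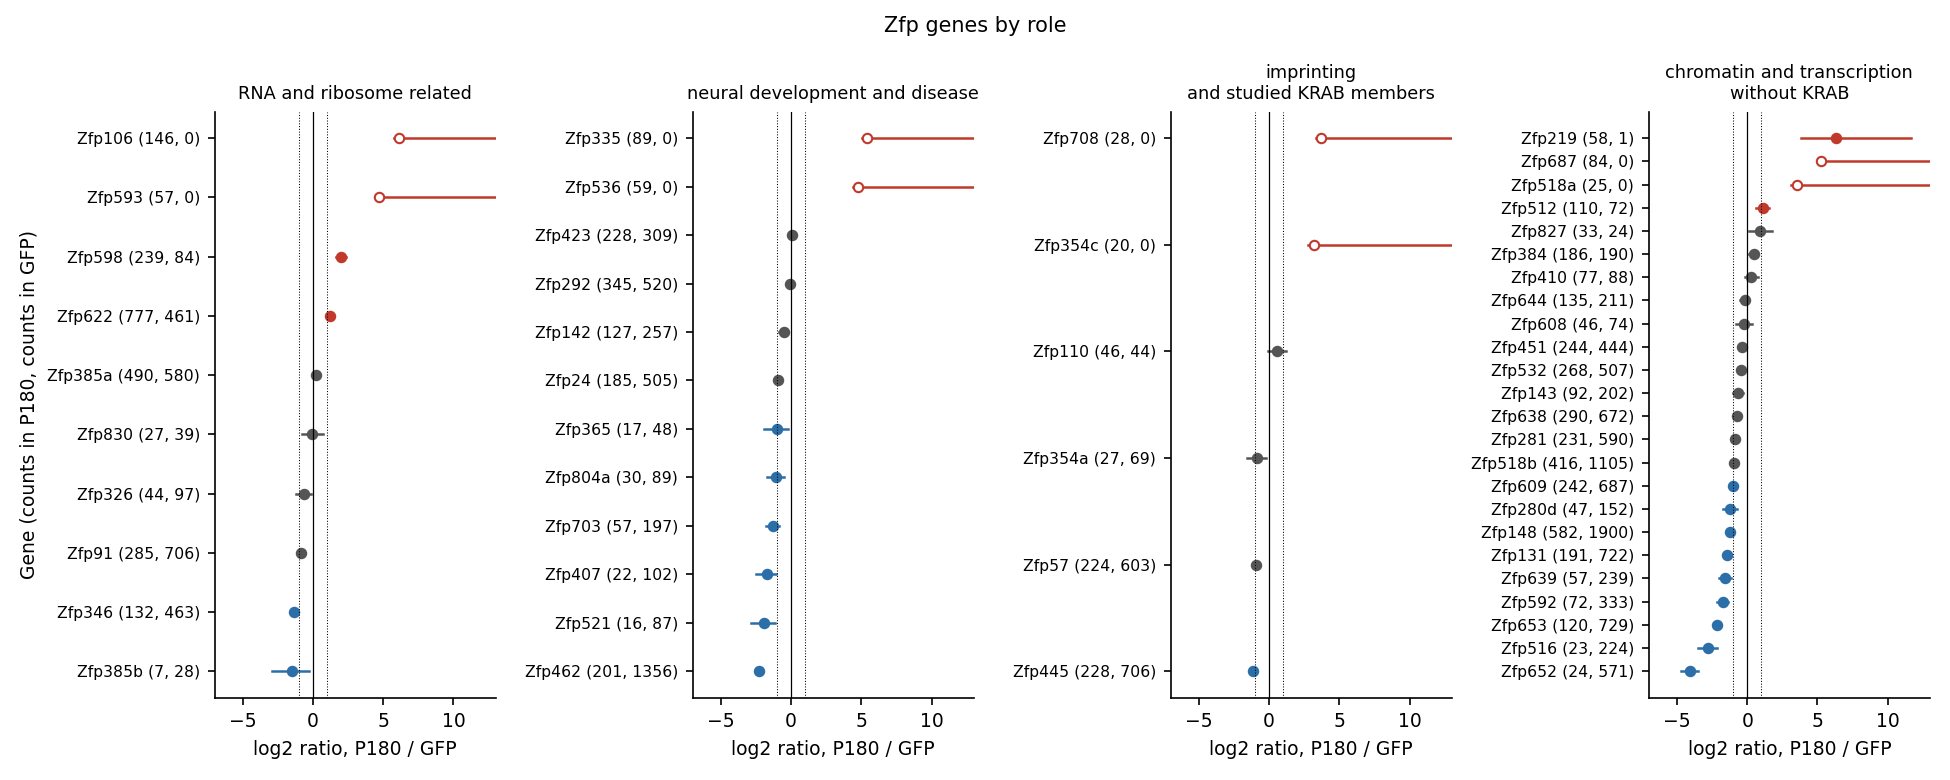
Log2 ratio of scaled counts (P180 over GFP, horizontal axis) of the measured members of the 4 role lists, one gene per line. Bars are exact counting intervals, and open symbols are genes at 0 in 1 library. Medians were 0.10 for RNA and ribosome related, -0.97 for neural, -0.16 for imprinting and studied KRAB members, and -0.69 for chromatin and transcription without KRAB; all 4 lists hold genes on both sides.

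The partners of KRAB zinc finger proteins were spread too. Of 28 listed co-repressor genes 27 were measured, and 5 were higher and 5 were lower, with a median log2 ratio of -0.19. All 27 had at least 100 counts, where all genes were higher in 25.0% and lower in 23.9%, so the list stood near the background. Trim28, the protein that KRAB domains bind, had 2421 and 2148 counts, a log2 ratio of 0.66 (0.57 to 0.74). Its partner Setdb1, a methyltransferase of histone H3, had 263 and 546, a log2 ratio of -0.57 (-0.79 to -0.36).

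Subunits of the HUSH silencing complex fell on both sides. Mphosph8 had 345 and 2114 counts, a log2 ratio of -2.13 (-2.30 to -1.97), whereas Tasor had 105 and 0, and Pphln1, with 45 and 59, was at 0.09 (-0.50 to 0.68). The other lower genes were the chromatin remodeller Smarcad1 (165 and 1468, -2.67), the Setdb1 cofactor Atf7ip (204 and 760, -1.42), the methyltransferase Ehmt1 (113 and 589, -1.90) and Morc3 (84 and 388, -1.73). The other higher genes were Uhrf1 (153 and 0), Rbbp4 (230 and 118, 1.45), Morc2 (150 and 80, 1.39) and Mta2 (230 and 143, 1.17).

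Other zinc finger families were measured by name for comparison. Of 30 Zbtb genes 15 were higher and 6 were lower (median log2 ratio 1.12), of 16 Zscan and Zkscan genes 8 were higher and 4 were lower (1.89, or 1.15 with genes at 0 placed at their bound), of 16 Klf and Sp genes 7 were higher and 2 were lower (0.68), and of 13 Zc3h genes, whose CCCH fingers bind RNA, 2 were higher and 3 were lower (0.36), where all genes were higher in 40.6% and lower in 19.9%. With at least 100 summed counts, 4 of 17 Zbtb genes were higher and 5 were lower (-0.28), 0 of 7 Zscan and Zkscan genes were higher and 4 were lower (-1.54), 4 of 11 Klf and Sp genes were higher and 2 were lower (0.17), and 0 of 10 Zc3h genes were higher and 2 were lower (0.26), beside 25.0% and 23.9% of all genes. The order of the families turned with the count level, as the Zscan and Zkscan genes had the highest of these medians over all measured genes and the lowest from 100 counts, and these lists are small.

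Many Zfp genes sit side by side as products of local duplication, and neighbours fell on the same side as well as on opposite sides. In the order of protein-coding genes of the RefSeq gene table, which placed 198 of the 206 members, 7 runs of at least 4 members with at most 3 other genes between neighbours held 41 members. In 6 of the 7 runs at least 1 member was higher and at least 1 was lower, and the exception, Zfp329 to Zfp324, had no lower member. Whether members in runs differ in this from members elsewhere was not tested. Of 29 pairs of directly adjacent members 4 were both higher, 3 were both lower and 5 were opposite (Zfp27 and Zfp420, Zfp14 and Zfp82, Zfp688 and Zfp689, Zfp692 and Zfp672, Zfp398 and Zfp282). Over all 206 members 35.0% were higher and 31.6% were lower, so runs and pairs of mixed direction would also arise without any tie between neighbours. A difference from pairs of members taken at random was not tested.

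The run from Zfp786 to Zfp862, with 9 members, had 4 higher and 3 lower. In order, Zfp786 was at -3.46 and Zfp398 at -1.20 (34 and 109 counts). Next came 3 higher members, namely Zfp282 at 1.49 (213 and 106), Zfp212 with 202 and 0 counts, and Zfp956 with 42 and 0, at least 19.6-fold higher. Zfp777 stood at -0.14 (149 and 230), Zfp746 (PARIS), a repressor studied in Parkinson's disease, at -0.75 (133 and 312), Zfp467 at 1.42 (21 and 11), and Zfp862 at -6.89. Within 1 run the members thus covered nearly the whole range of the family. The ends of that range rest on 1 count of Zfp862 in the P180 pull-down and 0 counts of Zfp212 in the GFP pull-down. Apart from Zfp862, the members with counts in both libraries ran from -3.46 (Zfp786) to 1.49 (Zfp282).

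The run from Zfp84 to Zfp146, also with 9 members, had 3 higher and 4 lower. Zfp84 was at 3.30 and Zfp27, with 59 and 0 counts, at least 27.5-fold higher. Zfp420 followed at -2.84 (16 and 160 counts) and Zfp14 at -2.11 (75 and 453). Zfp82, with 12 and 0 counts, was higher against the floor, and the last 4, Zfp566, Zfp260, Zfp382 and Zfp146, were at -0.79, -0.59, -1.36 and -1.07.

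The run from Zfp560 to Zfp846 went from -0.01 for Zfp560 (100 and 141 counts) over 3.13 for Zfp26 (75 and 12), 1.64 for Zfp426 (69 and 31) and 0.01 for Zfp266 (245 and 341) to -2.43 for Zfp846 (118 and 890). Because short 3' reads with more than 1 equally good match were not counted, counts of near-identical Zfp copies and of overlapping or antisense neighbours are uncertain. Which members have such a copy was not determined here.

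**Figure D5:**
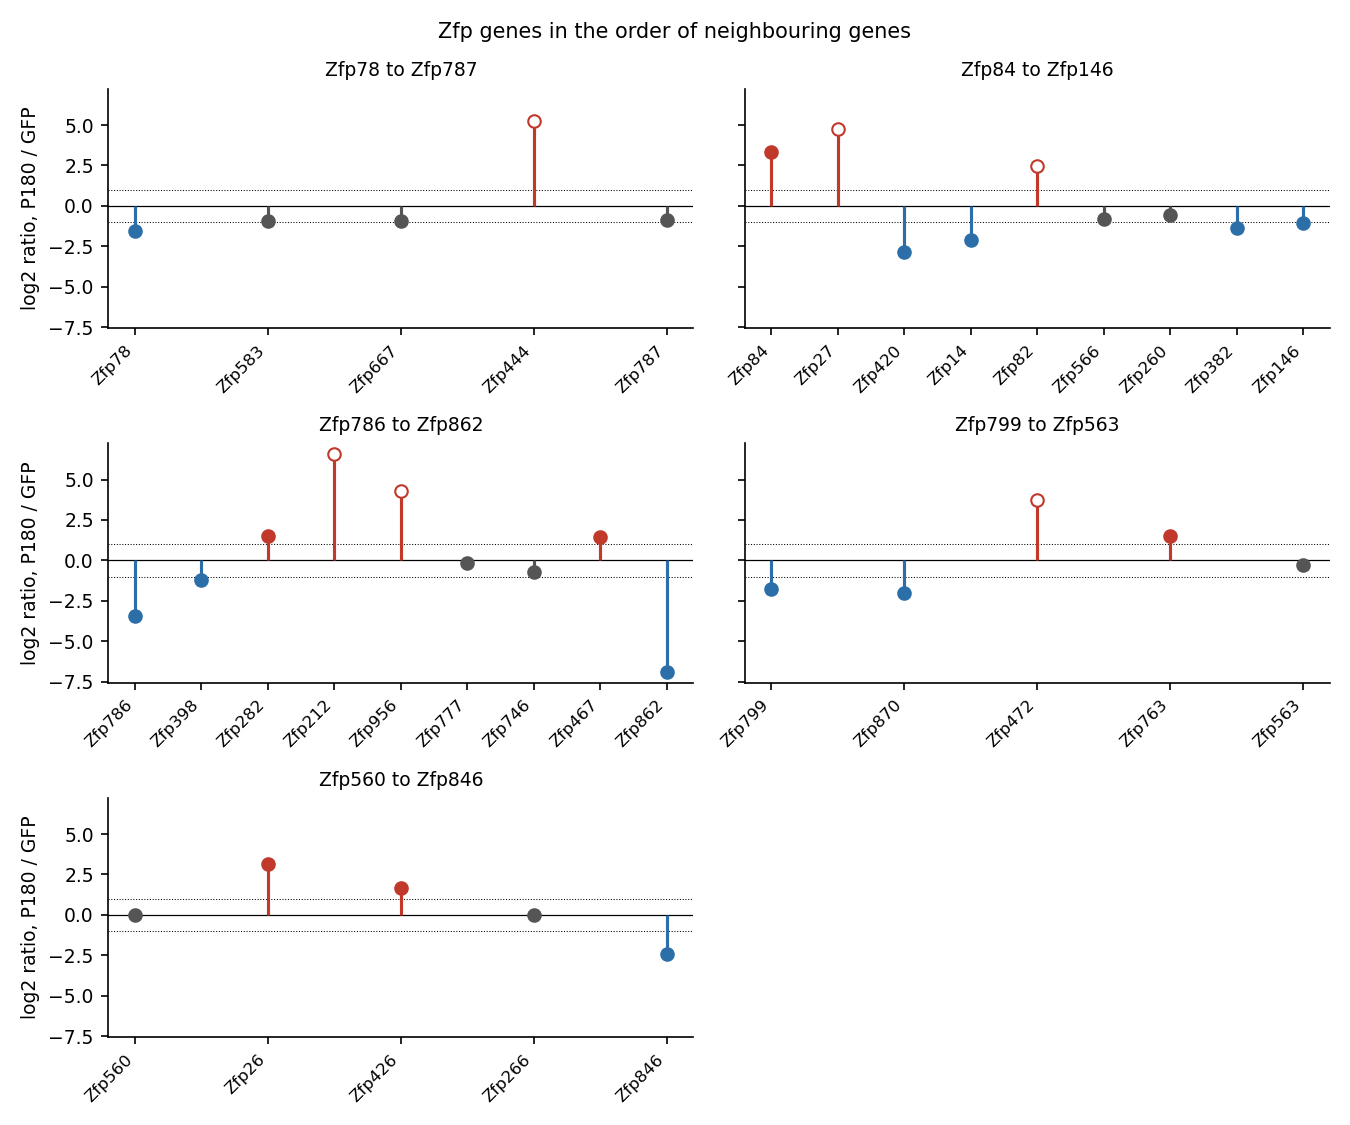
Log2 ratio of scaled counts (P180 over GFP, vertical axis) of the Zfp genes in the 5 runs of at least 5 members, in their order along the chromosome (horizontal axis, rank within the run). Open symbols are genes at 0 in 1 library, placed at the bound; each of these runs crosses 0, with the widest spread from Zfp786 to Zfp862.

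At the edge of the count minimum the values were of the same kind. Just inside it, Zfp551 had 2 and 9 counts, a log2 ratio of -1.69 (-4.94 to 0.58), and Zfp597 had 12 and 0, at least 5.59-fold higher against the floor. Just outside, Zfp113 and Zfp641 each had 9 and 0 counts. Folds at this edge rest on about 10 reads.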

How the data were processed

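RNA from 1 GFPbio and 1 P180-GFPbio pull-down of rat primary cortical neurons was analysed. The authors deposited raw counts per gene: adapted CEL-Seq2 libraries were demultiplexed with je-suite-2.0, and read 2 was aligned to mRatBN7 and counted with STARsolo 2.7.10a (also named in the submitters' processing notes), discarding reads with several equal matches. Not given in the sources used here are the annotation release, the use of strand and whether molecular identifiers were used to collapse reads. Without collapsing, counting intervals are too narrow. The study tested differences with DESeq2, which needs replicates and was not repeated here. The table held 2 further columns of counts, which match no sample as given here and were not used.

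Of 25628 genes, those reaching 10 counts over the libraries together entered the analysis. The 92 ERCC spike-in rows held 2 and 9 counts in the P180 and GFP libraries and were left out. Scaling used median-of-ratios size factors, a 0 was set to 3 counts for a fold (0.476 CPM in the P180 pull-down and 0.356 in the GFP pull-down), and exact 95% Clopper-Pearson intervals were computed from the P180 share of each gene's counts. PCR and transcription copies are not independent molecules, so intervals and floors cover counting error only.

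Members, lists and tests were chosen with earlier results of these data known. Named genes were the 12 members with the highest mean scaled count, the 8 with the highest lower and the 8 with the lowest upper limit of the ratio (mean scaled count of at least 50, counts in both libraries), the 6 at 0 in the GFP pull-down with the most counts, those at 0 in the P180 pull-down (up to 4, of which there were 3), the role and co-repressor lists, 2 genes on each side of the count minimum, and neighbours of such genes. Gene order came from the RefSeq gene table of GRCr8. Its coordinates were not used, since the build differs. Alternatives were TMM scaling, total counts with and without mitochondrially encoded genes and EGFP_avitag, other count filters, thinning, another floor, 5 scaled counts added, and Znf genes added. Steps were tested on simulated data. Python 3.11.15, numpy 2.4.6, pandas 2.3.3, scipy 1.17.1, matplotlib 3.10.9, R 4.3.3 and edgeR 4.0.16 were used.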

Additional observations from a re-analysis of the deposited data

How the results depend on the processing

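The 72 members higher in the P180 pull-down became 31 where counts in both libraries were required and 10 where the mean scaled count had to reach 100, and were 68 to 83 under the other alternatives. The 65 lower members became 35 where that mean had to reach 100 and were 62 to 77 otherwise. Of the members called, 52.6% were higher, against 33.3% with counts in both libraries and 22.2% at a mean of at least 100. The 41 members at 0 in the GFP pull-down became 0 and 2 under these filters, and 69 with no minimum, while the members numbered 162, 86 and 237. The median log2 ratio of -0.23 turned to 0.080 with no minimum, which adds genes seen mostly in the P180 pull-down. It was -0.64 with counts in both, -0.79 at a mean of at least 100, -0.29 with total counts, -0.28 with Znf genes added and -0.47 with total counts after leaving out mitochondrially encoded genes and the tag row EGFP_avitag. That last scaling moved the median of all genes by -0.23 and gave 6 higher and 34 lower members at 300 counts or more. Of 492 ratios of 82 named members recomputed, 445 stayed within their counting interval, 47 moved beyond it and 0 changed sign. No paired analysis was possible because 1 library per condition was used (2 further columns match no sample given here), and for the same reason no library could be left out. The planned grouping by protein architecture, and the alternatives that keep only members with a finger motif or leave out near-identical copies, were not run, since no protein sequences were used here. Ratios are least certain for members under 100 counts, 38 of 78 of which were at 0 in the GFP pull-down, although it was the deeper library. Thinning that library left 42 of the 206 at 0. Since thinning only removes counts, it could not have lowered the number from 41.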

Other observations

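Of the 269 Zfp names, 63 had under 10 counts. Of these, 32 had no count in either library and 31 had 1 to 9, which came to 125 counts in the P180 pull-down and 9 in the GFP pull-down. Among the 31, 28 had counts in the P180 pull-down alone, 2 in both and 1, Zfp758, in the GFP pull-down alone (0 and 4 counts). Members of the role lists among the 63 were Zfp280b (7 and 0), Zfp711 (6 and 0), Zfp385d (4 and 0), Zfp704 (3 and 0), Zfp280c and Zfp36 (2 and 0 each), while Zfp217, Zfp385c and Zfp804b had none.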
